A study of Mus musculus with 4 samples.

Results

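The transcripts of 10 genes were followed across 4 RNA sequencing libraries of whole mouse testis: the 5 subunit genes of the transcription factor NF-kB (Nfkb1, Nfkb2, Rel, Rela and Relb), the genes of the cytoplasmic inhibitors IkB-alpha (Nfkbia), IkB-beta (Nfkbib) and IkB-epsilon (Nfkbie), and the genes of the nuclear IkB proteins IkB-zeta (Nfkbiz) and Bcl3. They were taken by gene symbol from a table of 49492 gene rows, and all 10 were found and passed the filter on low counts. The labels give 2 groups of 2 libraries, all from testes of male C57BL/6J mice that had received LPS (lipopolysaccharide, the outer-membrane glycolipid of Gram-negative bacteria, sensed by innate immune cells). In one group a short hairpin RNA was directed at Spry1, which dampens signalling from receptor tyrosine kinases (shSpry1, genotype Spry1 knockdown), and the other carried a control hairpin (shControl, genotype WT). The age of the animals, the LPS dose and time, and how the hairpins were delivered and in which cells they acted are not given in the labels, and neither is whether replicates came from separate animals, so a p-value reflects the spread among these libraries alone, which may be technical. The series title places the work in the question of whether Dmrt1 and Spry1 restrain NF-kB signalling in the testis.

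The count columns carry the headings LPS and NC, which are not the sample titles. Here NC is taken to mean the control hairpin, and LPS the Spry1 knockdown. Since LPS stands in all 4 titles, this reading is not an exact match, and the headings could also mean LPS against no LPS, in which case each difference below belongs to that contrast. Below, the groups go by their headings, LPS columns and NC columns, and a positive log2 fold change means a higher level in the LPS columns. Spry1 itself was counted 26 and 17 times in the LPS libraries and 45 and 41 times in the NC libraries, a log2 fold change of -0.82 ± 0.28 (SE; edgeR, Benjamini-Hochberg adjusted p = 0.0212, up to 0.249 over the alternative settings). The Spry1 level was known before NC and LPS were read in this way and is no independent test of the reading.

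NF-kB is a dimer of Rel-family proteins. Rela, Relb and Rel carry transactivation domains, while Nfkb1 and Nfkb2 encode the precursors p105 and p100, which are processed to the DNA-binding partners p50 and p52 and which, unprocessed, also hold dimers in the cytoplasm. IkB-alpha, IkB-beta and IkB-epsilon mask the dimers until the IkB kinase complex, activated through receptors such as the LPS receptor TLR4, marks them for destruction. IkB-zeta and Bcl3 instead bind p50 or p52 dimers in the nucleus and adjust which genes are transcribed. Several of these genes are themselves NF-kB targets, and Nfkbia is the textbook case of a feedback inhibitor.

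The starts of Nfkb2, Rel, Nfkbia and Nfkbie are shown here because these members rose and had a promoter window. They are marked for kB sites, the DNA elements that NF-kB dimers bind. The windows of Rela, Nfkbib and Bcl3, which were not called, and a further start of Nfkb2, which also held a match, are not printed. The printed windows were thus chosen by their calls and tie no kB site to the rise. RefSeq promoter windows of 300 bases (250 before to 50 after the annotated start, build GRCm38.p6) were matched by symbol for 7 members, namely Nfkb2, Rel, Rela, Nfkbia, Nfkbib, Nfkbie and Bcl3. The sequences run 5′ to 3′ on the gene's strand, and capitals mark every match on either strand to the kB consensus (3 G, a purine, any 2 bases, 2 pyrimidines and 2 C, a motif of 10 bases). Adjacent capitals can be overlapping matches. The windows are chr19:46304487-46304786 and chr19:46305445-46305744 on the plus strand for the first and the second start of Nfkb2, chr11:23770920-23771219 on the minus strand for Rel, chr12:55492598-55492897 on the minus strand for Nfkbia and chr17:45555450-45555749 on the plus strand for Nfkbie.
Nfkb2, first start: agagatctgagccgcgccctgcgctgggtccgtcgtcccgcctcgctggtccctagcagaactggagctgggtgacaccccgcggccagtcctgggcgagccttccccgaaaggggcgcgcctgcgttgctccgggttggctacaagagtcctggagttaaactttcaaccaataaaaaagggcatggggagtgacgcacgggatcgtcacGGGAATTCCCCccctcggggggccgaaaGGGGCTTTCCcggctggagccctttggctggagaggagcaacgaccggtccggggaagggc
Nfkb2, second start: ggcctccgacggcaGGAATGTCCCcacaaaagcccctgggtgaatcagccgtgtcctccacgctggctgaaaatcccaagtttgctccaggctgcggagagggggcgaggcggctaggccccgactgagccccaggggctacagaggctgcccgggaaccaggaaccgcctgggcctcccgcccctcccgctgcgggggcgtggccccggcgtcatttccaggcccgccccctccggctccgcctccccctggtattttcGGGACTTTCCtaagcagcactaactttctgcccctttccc
Rel: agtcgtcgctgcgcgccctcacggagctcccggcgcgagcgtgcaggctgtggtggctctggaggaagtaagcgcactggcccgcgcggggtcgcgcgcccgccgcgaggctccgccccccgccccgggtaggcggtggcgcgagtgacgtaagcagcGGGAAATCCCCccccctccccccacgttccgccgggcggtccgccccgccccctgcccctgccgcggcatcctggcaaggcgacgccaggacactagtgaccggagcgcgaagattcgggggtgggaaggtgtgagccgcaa
Nfkbia: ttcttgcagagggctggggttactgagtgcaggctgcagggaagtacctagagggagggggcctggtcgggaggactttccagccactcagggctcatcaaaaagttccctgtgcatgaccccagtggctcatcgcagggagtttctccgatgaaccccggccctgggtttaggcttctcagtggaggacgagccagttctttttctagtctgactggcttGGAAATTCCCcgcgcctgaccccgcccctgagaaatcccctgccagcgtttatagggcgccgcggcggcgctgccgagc
Nfkbie: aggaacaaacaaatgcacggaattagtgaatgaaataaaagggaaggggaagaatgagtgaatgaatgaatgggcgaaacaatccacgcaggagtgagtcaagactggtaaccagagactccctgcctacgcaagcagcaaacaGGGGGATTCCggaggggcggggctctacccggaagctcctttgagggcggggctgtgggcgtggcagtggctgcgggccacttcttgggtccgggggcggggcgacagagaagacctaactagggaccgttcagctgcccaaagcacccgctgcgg

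A kB consensus match was present in a window of 5 of these 7 members. Of all 32851 promoter windows of that length, 8.46% held one, and of all 27025 gene symbols, 9.55% had one in any of their windows. The first start of Nfkb2 held 3 overlapping or neighbouring matches, from 39 to 2 bases before the start, and 0.186% of all windows held 3 or more. In the Nfkbia window the match GGAAATTCCC lay 29 to 20 bases before the start, in the Rel window 2 overlapping matches spanned 92 to 82 bases before it, and in the Nfkbie window GGGGGATTCC lay 106 to 97 bases before it. Bcl3, which was not called, held GGGAAGTCCC just after its start, and the windows of Rela and Nfkbib, also not called, held no match to these letters. A match describes the letters only. Neither binding nor any role of these elements was measured.

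Of the 10 members, 6 rose in the LPS columns and 0 fell, against a background of 15.2% of all 20855 tested genes called higher and 16.3% called lower. Calls come from the quasi-likelihood test of edgeR, with p adjusted by Benjamini-Hochberg over all tested genes and a threshold of 0.05. The genes that rose were the subunit genes Nfkb2, Relb and Rel, the inhibitor genes Nfkbie and Nfkbia, and Nfkbiz. Their increases ran from 1.33-fold for Nfkbia to 2.54-fold for Nfkb2 in mean CPM (counts scaled to the library total, corrected by TMM factors). Of the 6, Nfkb2, Nfkbie and Nfkbiz (3 of the 10 members) also had a log2 fold change of at least 1, as did 3.19% of tested genes. Nfkb1, Rela, Nfkbib and Bcl3 were not called. The median log2 fold change of the 10 members was 0.44, beside 0.00226 for all tested genes. At an unadjusted p under 0.05, 6 members were higher and 1, Nfkbib, was lower, where 19.9% of all tested genes were higher and 20.8% lower.

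The call count depended on the tool. DESeq2 called 2 of the 10 members higher and 0 lower, beside 6.97% of all genes called higher. At an unadjusted p under 0.05 it had 5 members higher and 0 lower, beside 12.0% and 13.9% of all genes. The 2 that it called were Nfkb2 and Nfkbiz. Without LPS replicate 2, the edgeR calls of Nfkbie (log2 fold change 0.80) and Rel (0.35) were lost, and Nfkbib (-0.18) became a call lower. The call of Rel was also lost without NC replicate 1 (0.51) and without NC replicate 2 (0.42). In each of these fits fewer of all genes were called as well. With library size as the only scaling, the same 6 members were called higher, while the split over all genes moved from 3169 higher and 3394 lower to 4210 higher and 2579 lower.

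**Figure D1:**
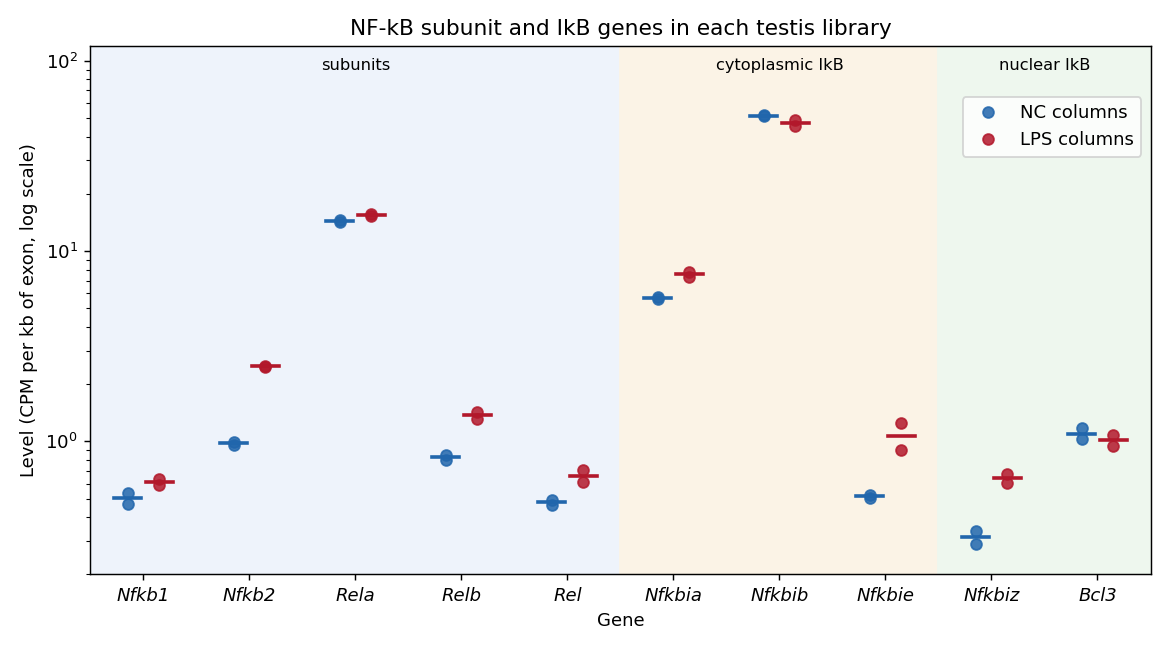
Per-length level of each member in each library (vertical log axis, CPM per kb of exon), with NC columns in blue and LPS columns in red; each point is 1 library and each bar the mean of 2. Nfkbib lies highest in every library, and Nfkb2 shows the widest gap between groups among the subunits, at 0.977 against 2.48.

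Among the subunits, Nfkb2, the p100 and p52 gene of the non-canonical route, had 162 and 145 counts in the LPS libraries against 72 and 65 in the NC libraries. In CPM these were 8.21 and 8.11 against 3.27 and 3.16. Both libraries of a group lay close together and the groups were far apart. The group means were 8.16 ± 0.07 and 3.21 ± 0.07 CPM (SD, n = 2 each), and the log2 fold change was 1.34 ± 0.16 (SE; edgeR, Benjamini-Hochberg adjusted p = 1.31e-08). It was called in all 10 alternative settings (adjusted p from 5.78e-15 to 1.98e-06). Ranked by p, it stood at place 471 of the 20855 tested genes. The deposited gene model lies on chromosome 19, from 46304737 to 46312090 in mm10, and shares 4 exon bases with Psd on the opposite strand.

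Relb, whose product pairs mainly with p52 and p100, had 110 and 91 counts against 68 and 68. It stood at 5.33 ± 0.34 and 3.20 ± 0.16 CPM in the LPS and NC columns (SD, n = 2 each), with no overlap between groups. The log2 fold change was 0.74 ± 0.17 (SE; edgeR, Benjamini-Hochberg adjusted p = 0.0011), and DESeq2 alone put it just past the threshold (adjusted p = 0.0512; range over settings 0.000259 to 0.0512). The gene spans 19606217 to 19629438 on chromosome 7, and no other gene model overlaps it.

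Rel encodes c-Rel, a subunit best known in lymphoid and myeloid cells. It had 90 and 94 counts against 81 and 71, or 4.56 and 5.26 CPM against 3.68 and 3.45 CPM. Its groups did not overlap, but the gap was of the order of the spread in the LPS columns. The log2 fold change was 0.46 ± 0.17 (SE; edgeR, Benjamini-Hochberg adjusted p = 0.043). DESeq2 did not call it (adjusted p = 0.31), and edgeR no longer did when LPS replicate 2 (adjusted p = 0.248), NC replicate 1 (0.0917) or NC replicate 2 (0.164) was left out, with 0.0223 the lowest value over settings.

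Rela, the p65 subunit of the canonical dimer, was the most abundant subunit transcript, with 818 and 766 counts against 848 and 816. The means were 42.1 ± 0.99 and 39.1 ± 0.87 CPM (SD, n = 2 each). The log2 fold change was 0.11, with a 95% interval of -0.036 to 0.25, and it was not called (edgeR, Benjamini-Hochberg adjusted p = 0.264). Nfkb1, the p105 and p50 gene, had 141 and 137 counts against 143 and 116 (7.40 ± 0.37 CPM against 6.07 ± 0.60 CPM) and was not called either (log2 fold change 0.28, interval -0.0036 to 0.57, adjusted p = 0.128). Both genes were higher in each LPS library than in each NC library on the CPM scale, as were 8 of the 10 members and 32.1% of tested genes. The intervals allow an increase of up to 0.57 for Nfkb1 and 0.25 for Rela on the log2 scale, so an equal level is not shown.

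Ratios of counts within a library do not depend on the scaling between libraries. The ratio of Nfkb2 to Rela was 0.198 and 0.189 in the LPS columns and 0.0849 and 0.0797 in the NC columns. That of Relb to Rela was 0.134 and 0.119 against 0.0802 and 0.0833. Hence Nfkb2 and Relb moved relative to Rela in both LPS libraries, by 2.35-fold and 1.55-fold of the mean ratio. The ratio of Nfkb1 to Rela was 0.172 and 0.179 against 0.169 and 0.142, a difference within the spread of the NC columns.

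**Figure D2:**
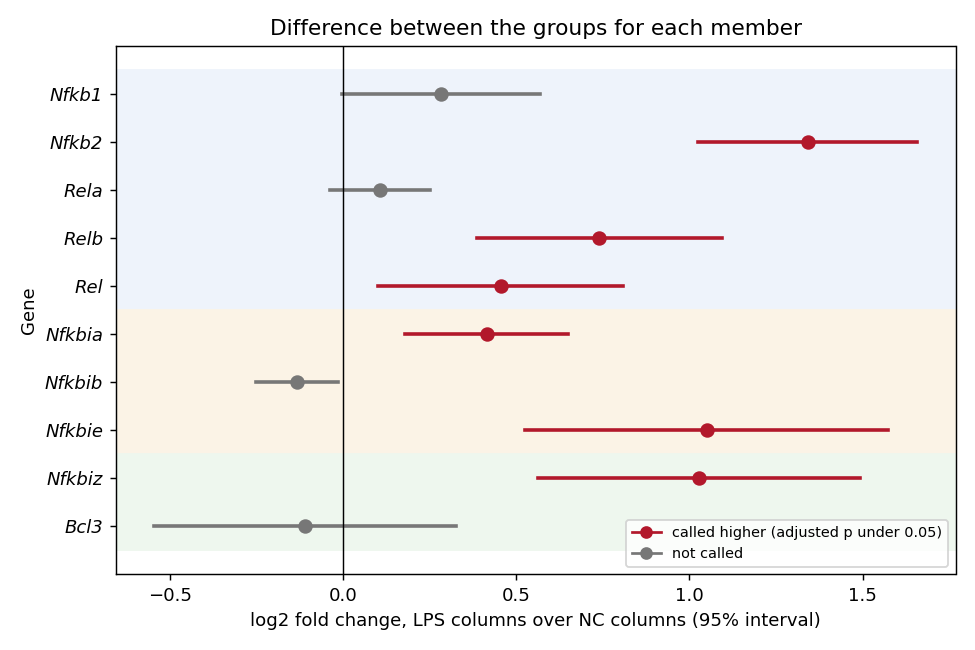
Log2 fold change of each member, LPS columns over NC columns (horizontal axis), with its unadjusted 95% interval from the edgeR fit; red marks members called higher after adjustment and grey those not called. The intervals of Nfkb2, Nfkbie and Nfkbiz centre above 1, and that of Nfkbib lies just below 0 without passing the adjusted threshold.

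Among the cytoplasmic inhibitors, Nfkbie, which encodes IkB-epsilon, had 43 and 54 counts against 28 and 25. In CPM these were 2.18 and 3.02 against 1.27 and 1.22. The LPS libraries differed from each other more than the NC libraries did, and the groups did not overlap. The log2 fold change was 1.05 ± 0.26 (SE; edgeR, Benjamini-Hochberg adjusted p = 0.00178), which DESeq2 did not call (adjusted p = 0.0702). Leaving out LPS replicate 2 also ended the edgeR call (0.80, adjusted p = 0.0529), and 0.000254 was the lowest adjusted p over settings. The gene spans 45555716 to 45563169 on chromosome 17.

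Nfkbia, for IkB-alpha, had 242 and 207 counts against 200 and 181. On the CPM scale it stood at 12.3 and 11.6 in the LPS columns and 9.07 and 8.81 in the NC columns. Every LPS library was above every NC library, by an amount larger than the spread within groups. Its adjusted p over settings ran from 0.0022 to 0.107, the highest from DESeq2. It is thus the called member with the smallest fold change, 0.41 ± 0.12 (log2, SE).

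Nfkbib, for IkB-beta, had the most counts of the family, 1942 and 1892 against 2446 and 2314. Its means were 102 ± 5.25 and 112 ± 1.14 CPM (SD, n = 2 each), which placed both LPS libraries below both NC libraries. Of all tested genes, 32.0% lay apart in that direction. The log2 fold change was -0.13 ± 0.06 (SE) and was not called (edgeR, Benjamini-Hochberg adjusted p = 0.0824). Leaving out LPS replicate 2 made it a call (-0.18 on the log2 scale, adjusted p = 0.0399), and its adjusted p ranged from 0.0399 to 0.437. Of its exon length, 14.5% lies over Ccer2 and 1.94% over Sirt2, both on the opposite strand. Ccer2 had 11 to 26 counts and Sirt2 1161 to 1607, and the strand setting of the counting is not known, so a small part of the Nfkbib reads is uncertain.

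Of the nuclear IkB genes, Nfkbiz had 67 and 54 counts against 32 and 35. The means were 3.21 ± 0.26 and 1.58 ± 0.18 CPM (SD, n = 2 each). The groups were well apart, and the log2 fold change was 1.03 ± 0.23 (SE; edgeR, Benjamini-Hochberg adjusted p = 0.000601), called in all 10 alternative settings (adjusted p from 7.01e-05 to 0.0414). IkB-zeta is known as a co-factor for a second wave of LPS-induced genes in macrophages.

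Bcl3 was the only member whose groups overlapped, with 53 and 42 counts against 64 and 52. Its log2 fold change was -0.11 with an interval of -0.54 to 0.33, and without NC replicate 1 it was 0.0018, so these libraries give it no direction. It shares 161 exon bases, 6.51% of its length, with the antisense model Gm16175, which had 24 and 21 counts against 51 and 47. Gm16175 was thus present at counts near those of Bcl3, and reads from that shared stretch cannot be assigned to either gene without strand.

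Compared per length of exon, the family was dominated by a few transcripts. Nfkbib stood at 47.1 ± 2.42 CPM per kb in the LPS columns and 51.5 ± 0.52 in the NC columns, Rela at 15.5 ± 0.36 and 14.4 ± 0.32, and Nfkbia at 7.56 ± 0.31 and 5.67 ± 0.12 (SD, n = 2 per group). These were the first 3 places in both groups. In the NC columns Bcl3 (1.10), Nfkb2 (0.977) and Relb (0.823) followed, with the library ranges of neighbours not overlapping. With 2 libraries and 52 to 72 counts in each for these genes, their order is uncertain. Then came Nfkbie, Nfkb1 and Rel (0.513, 0.503 and 0.477), whose neighbouring ranges overlapped, with Nfkbiz last (0.314). In the LPS columns Nfkb2 came next at 2.48 ± 0.02 and then Relb at 1.37 ± 0.09, while Nfkbie and Bcl3 (1.07 and 1.02) overlapped, as did Rel, Nfkbiz and Nfkb1 at the bottom (0.657, 0.639 and 0.614). The divisor is the full exon length of the gene model, 12061 bases for Nfkb1 and 3885 for Relb. In CPM without it, Nfkb1 stood at 7.40 in the LPS and 6.07 in the NC columns, above Relb at 5.33 and 3.20. The low place of Nfkb1 thus depends on the length divisor.

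As a share of the summed per-length level of the 10 genes, Nfkbib made up 59.5% and 61.1% in the LPS columns and 67.4% and 67.7% in the NC columns. Nfkb2 made up 3.28% and 3.09% against 1.31% and 1.25%. The make-up thus differed between groups by more than within them for both genes. The summed level of the family was 78.0 ± 2.56 CPM per kb against 76.3 ± 0.58, a difference within the spread of the LPS columns. Split by role, the 5 subunit genes summed to 20.4 and 20.9 against 17.0 and 17.4, and the 4 other than Rela to 5.13 and 5.11 against 2.82 and 2.74, which is 1.84-fold. The 3 cytoplasmic IkB genes summed to 54.0 and 57.4 against 57.4 and 58.0, since Nfkbib outweighs the other two. These sums are descriptions with no test.

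**Figure D3:**
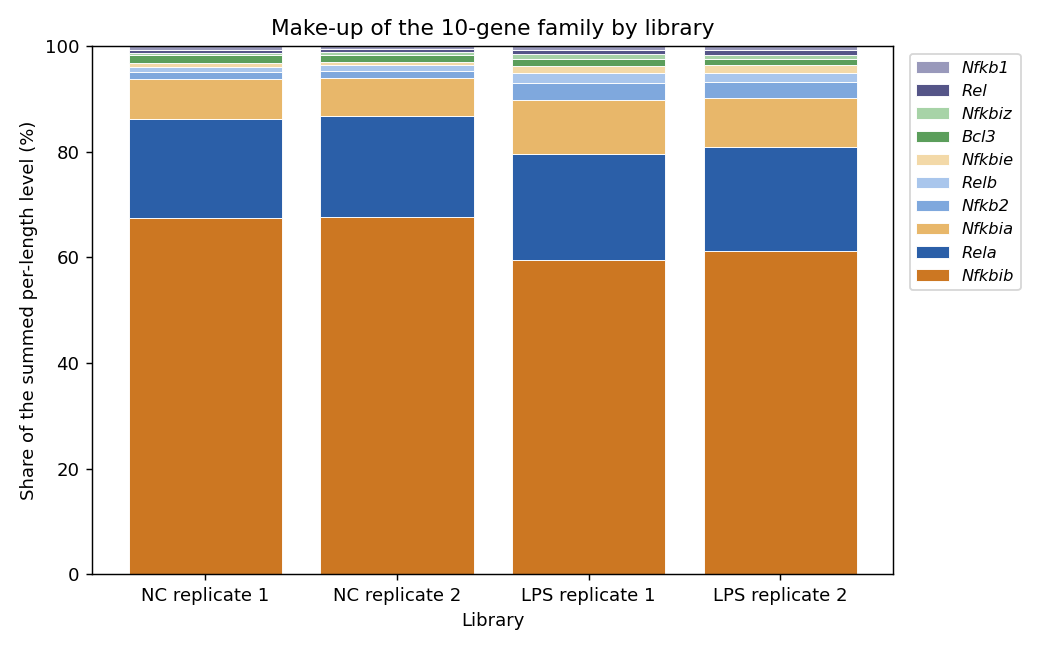
Stacked bars give the share (%) of each member in the summed per-length level of the 10 genes, 1 bar per library. The Nfkbib share is 67.4% and 67.7% in the NC bars and 59.5% and 61.1% in the LPS bars, and the bands of Nfkb2 and Relb are wider in the LPS bars.

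Other genes of the pathway were read from the same fit, in lists set by function and chosen with earlier results of these data known. The IkB kinase complex and its upstream activators had 2 of 19 tested members called higher and 0 lower, with a median log2 fold change of 0.17. The share called higher was 10.5%, where that of all tested genes was 15.2%, a gap too small to read in 19 genes. By edgeR at an unadjusted p under 0.05, 5 were higher and 1 lower (all genes 19.9% and 20.8%). DESeq2 called 0 in either direction, with 2 higher and 0 lower unadjusted (all genes 12.0% and 13.9%). The kinase genes Chuk and Ikbkb and the scaffold gene Ikbkg were not called, at log2 fold changes of 0.17 ± 0.10, 0.11 ± 0.08 and 0.27 ± 0.14 (SE). The called pair was Tab3, an adaptor of the kinase TAK1, at 0.43 ± 0.13 (range of adjusted p 0.00416 to 0.151), and Ripk1, a kinase of TNF receptor signalling, at 0.29 ± 0.09 (0.00302 to 0.13). Both calls were lost with DESeq2 and without NC replicate 1, and that of Ripk1 also without LPS replicate 1. With library size as the only scaling, 5 of this list were called higher, beside 4210 of all 20855 tested genes (3169 with TMM).

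In the non-canonical route, which processes p100, 3 of 10 tested genes rose and 1 fell (median log2 fold change 0.24). Of all tested genes, 15.2% rose and 16.3% fell. By edgeR at an unadjusted p under 0.05, 5 were higher and 1 lower (all genes 19.9% and 20.8%). DESeq2 called 2 higher and 1 lower, beside 1454 and 1845 of all 20855 tested genes. Tnfsf13b, the gene of the cytokine BAFF, had 51 and 49 counts against 21 and 21 (1.42 ± 0.26, log2, SE), and Tnfrsf12a, a TNF-family receptor gene, 78 and 51 against 42 and 30 (1.02 ± 0.23). Cd40, a receptor that activates this route, had only 12 and 11 counts against 4 and 4, so it passed the filter on low counts only through the LPS columns. Its call (edgeR, Benjamini-Hochberg adjusted p = 0.0155, range over settings 0.0122 to 0.242) was lost with DESeq2 and without any single library of the 4. The gene that fell was Tnfrsf13c, the BAFF receptor gene, with 252 and 182 counts against 418 and 313. Map3k14, the NF-kB-inducing kinase gene of the route, was not called, at 0.04 ± 0.13. With library size as the only scaling, 5 of the list were called higher, beside 4210 of all 20855 tested genes (3169 with TMM).

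Among other modulators, 2 of 11 tested genes rose and 1 fell, with a median log2 fold change of 0.15, so their share of calls was near that of all genes. Cul1, the cullin of the ligase that ubiquitinates phosphorylated IkB, was at 0.21 ± 0.06, Nkap at 0.54 ± 0.21 and the deubiquitinase gene Usp7 at -0.15 ± 0.05 (log2, SE). Each of these calls was lost in some setting. Cul1 was lost without NC replicate 1, Usp7 without LPS replicate 1 or either NC replicate, and Nkap without any single library and with DESeq2. Usp7 was also lost with library size as the only scaling (log2 fold change -0.089). Nfkbid, the remaining nuclear IkB gene, had 1 to 5 counts per library and was too low to be tested.

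Of the 5 lists, the textbook target genes of NF-kB had the largest median log2 fold change, over the genes that could be tested. Of the 32 listed, 7 were too low to be tested. Ptgs2 and Ccl20 were at 0 in every library. Nos2 had 6 and 5 counts against 8 and 6, Mmp9 5 and 4 against 4 and 4, and Il6 2 and 0 against 0 and 0. Cxcl10 had 7 and 11 counts against 1 and 0, and Cxcl2 4 and 2 against 0 and 0. Of 25 tested, 21 rose and 1 fell, where 15.2% of all tested genes rose and 16.3% fell. The list was chosen with earlier results of these data known. Its share beside that of all genes is thus a description and no test. The median log2 fold change of the list was 1.35. Several of these genes passed the filter on low counts only through the LPS columns, which favours a call higher. Among them were Tnf (14 and 13 counts against 0 and 0), Ccl2 (24 and 14 against 0 and 1), Bcl2a1b (21 and 15 against 0 and 1) and Cxcl1 (40 and 33 against 4 and 4). With a filter of at least 1 CPM in 2 libraries, 16 were called higher and 1 lower. Of all 18442 genes tested under that filter, 3074 were called higher and 3304 lower. That filter also admits genes through the LPS columns alone, such as Cxcl1 (2.03 and 1.85 CPM against 0.181 and 0.195), so it does not remove the favour. The 5 with the lowest adjusted p were complement C3 at 5.71 ± 0.10, the acute-phase gene Saa3, the complement gene Cfb at 3.14 ± 0.12, the siderophore-binding Lcn2 at 1.82 ± 0.07 and the adhesion molecule gene Icam1 at 2.55 ± 0.16 (log2, SE). Saa3 had 2286 and 2163 counts against 2 and 22, and its log2 fold change of 7.70 became 6.79 when NC replicate 1 was left out and 10.26 when NC replicate 2 was. All 5 exceeded the 1.34 of Nfkb2, the family member with the largest fold change. The gene that fell was Sele, for E-selectin, with 62 and 48 counts against 88 and 90 (log2 fold change -0.52 ± 0.19, edgeR, Benjamini-Hochberg adjusted p = 0.035, range over settings 0.0267 to 0.285). That call was lost with DESeq2, with library size as the only scaling, and without LPS replicate 2, NC replicate 1 or NC replicate 2.

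**Figure D4:**
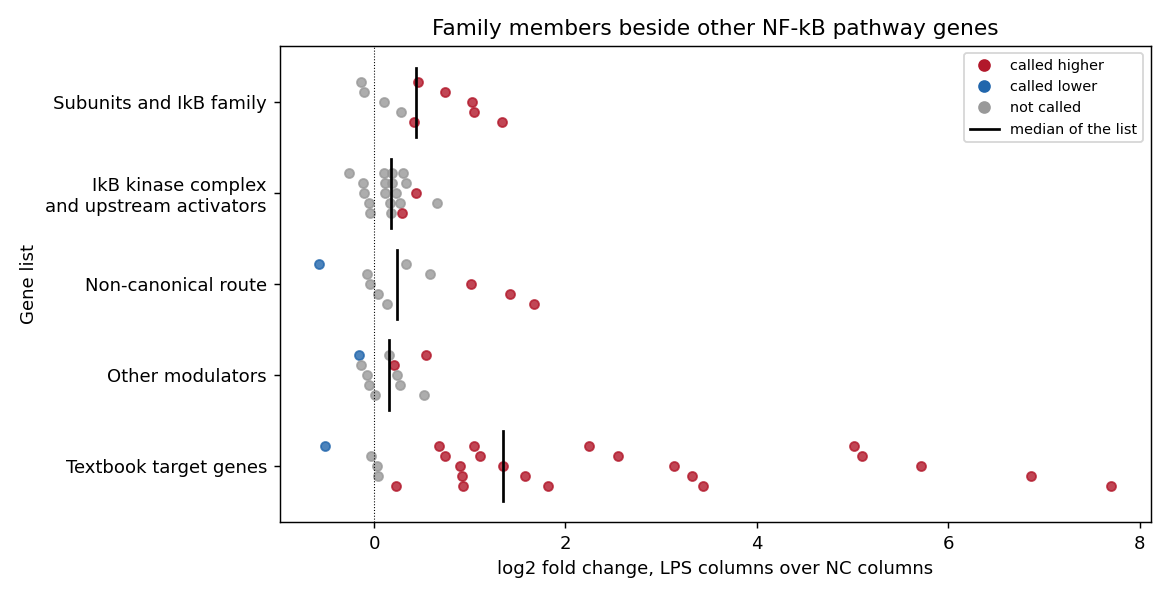
Log2 fold change (horizontal axis) of every tested gene in 5 lists, 1 point per gene, red for called higher, blue for called lower and grey for not called, with a black bar at each list's median. The medians are 0.44 for the family, 0.17, 0.24 and 0.15 for the 3 signalling lists and 1.35 for the target genes.

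The genes with the pattern most like that of Nfkb2 over the 4 libraries, among 5297 tested genes within 2-fold of its mean CPM, were Ddx58 (the RNA sensor RIG-I), Prnp (the prion protein) and Gm21698. Likeness was the Euclidean distance of centred log2 CPM, which was 0.0607, 0.0643 and 0.0954. Their log2 fold changes were 1.30, 1.32 and 1.31. With 4 libraries, a likeness of this kind holds little more than the difference between the groups.

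In bulk tissue, a change in the number of cells of a type and a change in transcript per cell cannot be told apart, and markers of several cell types moved beside these results. The counts of calls below stand beside 15.2% of all tested genes called higher and 16.3% called lower. Of 11 tested macrophage and monocyte markers, 6 rose and 4 fell. Adgre1, Itgam, Cd14, Mpeg1, Lyz2 and Fcgr1 rose, while Aif1, Csf1r, Mrc1 and Cd163 fell. Csf1r had 98 and 122 counts against 208 and 209, and Mrc1 244 and 227 against 421 and 429. The summed level of the list overlapped between groups, at 372 to 386 CPM (LPS columns) and 373 to 399 (NC columns). Most of it came from Aif1. Without Aif1, itself called lower, the sum was 87.0 to 99.5 against 54.6 to 60.3 CPM. These markers thus had no single direction. The pan-leukocyte gene Ptprc rose, with 75 and 89 counts against 31 and 26. Neutrophil markers summed to 4.05 to 4.58 CPM against 1.45 to 1.80, and 5 of the 8 were too low to be tested. Of the 3 tested, 2 were called higher. S100a9, called higher, had 35 and 32 counts in the LPS libraries and 0 in both NC libraries. It thus passed the filter on low counts only through the LPS columns, where it made up 1.78 CPM of the sum on average. Ly6g was at 0 in both LPS libraries and at 4 and 6 counts in the NC libraries, too low to be tested. Lymphocyte and NK cell markers summed to 6.33 to 7.27 CPM against 3.89 to 3.99, but the 1 of 3 tested that was called higher was Ptprc itself, and without it the sum was 2.29 to 2.53 against 2.59 to 2.63. In that list Ncr1 was at 0 in all libraries, and Nkg7 was at 0 in both LPS libraries and at 4 and 7 counts in the NC libraries. Endothelial markers overlapped between groups in their sum (27.7 to 32.1 against 25.2 to 31.6 CPM), with 3 of 7 called higher and 1 lower. Leydig cell markers fell in 4 of 7 and rose in 1 (439 to 503 against 810 to 850 CPM), and Sertoli cell markers rose in 5 of 10 and fell in 0 (891 to 905 against 652 to 657 CPM). Germ cell markers fell in 7 of 12 and rose in 1 (14078 to 14639 against 19970 to 20692 CPM in their sum). The part of these markers in the differences of the NF-kB genes was not tested.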

How the data were processed

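Per the labels' protocols, a stranded mRNA kit was used on TRIzol-extracted RNA of whole testis. The authors deposited raw read counts per gene in 1 table with 4 count columns. Per the submitters' processing notes, the tools were DESeq, edgeR 3.12.1, featureCounts, Subread 1.5.1, STAR 2.5.3a and Trimmomatic 0.36, with build mm10 and no roles given. Not given in the sources used here are the annotation release, whether counting used strand, and whether molecular identifiers were used. The deposited table also gives each gene's exon length in bases, a property of the gene model with no unit of expression.

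Libraries held 17612342 to 22451132 counts. Replicates differed by more than sampling noise (chi-square per degree of freedom 2.31 in the LPS and 2.20 in the NC columns) and were kept as separate samples. Genes were filtered with filterByExpr, scaled by TMM and tested with edgeR 4.0.16 (quasi-likelihood, no covariates, 2 residual and about 34 prior degrees of freedom, so that each gene's variance leaned on the other genes). Standard errors are those implied by the F statistic, and intervals are 95% and unadjusted. Alternatives were DESeq2 1.42.0, limma-voom 3.58.1, library size as the only scaling, no filter, a filter of at least 1 CPM in 2 libraries, each library left out, and a replicate block. Promoters came from RefSeq. Gene names outside the family follow a rule: at most 5 called genes per list by adjusted p, those against the list's direction, and the 3 nearest patterns. Chuk, Ikbkb, Ikbkg, Map3k14, Nfkbid, Tnf and the cell type markers were named for their role after their values were seen. The untested target genes and Ccl2, Bcl2a1b and Cxcl1 were named for their counts. The members and lists were chosen with earlier results of these data known.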

Additional observations from a re-analysis of the deposited data

How the results depend on the processing

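Over 10 alternatives each, 6 members kept their call in every edgeR or limma-voom setting that used all 4 libraries. DESeq2 kept the direction of Rel (0.46), Relb (0.74), Nfkbia (0.41) and Nfkbie (1.06) without a call, and called 2 members higher, 1454 genes higher and 1845 lower, 0 of the kinase list, 1 other modulator higher and 0 target genes lower. Scaled by library size alone, 5 kinase-list, 5 non-canonical and 4 other modulator genes were called higher, and 0 other modulators and 0 targets lower. Over all 20855 tested genes, 4210 were then called higher and 2579 lower. The median log2 fold change of all genes was 0.0658 in that setting and 0.00226 with TMM. With 1 library left out at a time, all genes called ranged from 2287 to 2751 higher and 2497 to 2980 lower, members called from 4 to 6 higher and 0 to 1 lower, kinase-list genes from 0 to 2 higher, other modulators from 0 to 1 higher and 0 to 1 lower, and targets from 0 to 1 lower. The log2 fold change then ranged from 0.35 to 0.56 for Rel, 0.80 to 1.27 for Nfkbie, -0.18 to -0.0796 for Nfkbib and -0.21 to 0.0018 for Bcl3, which changed sign without NC replicate 1. Where 1 library was left out, the lone one is assumed to vary like the others. Without length correction, Nfkbib was 53.6% (LPS columns) and 61.6% (NC columns) of the family, because its gene model is shorter than most. The cause of the other changes was not tested. With the replicate number as a block, 6 members were called higher and 0 lower, and 3376 genes were higher and 3593 lower. Same-numbered libraries did not deviate together (correlation 0.018), so the numbers were not taken as pairs. Counts of 25 to 70 for Nfkbie, Nfkbiz and Bcl3 limit what can be seen of these genes.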
